A study of Mus musculus with 6 samples.

Results

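The genes described here handle heme and iron: Hmox1, Slc40a1, Blvra, Blvrb, Fth1, Ftl1, Slc48a1, Slc11a1, Bach1 and Nfe2l2. They were chosen by symbol for their roles in heme breakdown, iron storage and iron export, and all 10 are among the 11489 genes of the deposited table. RNA was sequenced from mouse bone marrow cells sorted by flow cytometry as F4/80+ Epor-eGFP+ (3 libraries) and as F4/80+ Epor-eGFP- (3 libraries). Macrophages of the mouse carry F4/80 on their surface, and eGFP reports on Epor, the erythropoietin receptor gene. The labels call the cells erythroblastic island macrophages, the macrophages that erythroblasts surround while they mature. The labels used here do not say how the reporter allele was built, nor the strain, age or number of mice. Whether a group's libraries are from different mice is likewise not stated, so the p-values reflect only how far these libraries spread, which may be technical.

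A macrophage that engulfs a red cell takes in its heme. The transporter Slc48a1 moves heme out of the phagolysosome, and heme oxygenase 1, the product of Hmox1, opens the ring and frees iron, carbon monoxide and biliverdin, which biliverdin reductases (Blvra, Blvrb) convert to bilirubin. The iron is stored in ferritin, built from heavy (Fth1) and light (Ftl1) chains, or leaves the cell through ferroportin, the product of Slc40a1. Heme also acts on transcription: it binds the repressor BACH1 and takes it off Hmox1, ferritin and ferroportin genes, where NRF2, the product of Nfe2l2, can act as activator.

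Levels are in FPKM, a unit that divides each gene's fragments by its length and by the size of the library. They are per length, so the levels of different genes can be set side by side, but the depth behind them is unknown. Libraries are called by their column number, 0 to 2. Epor itself was at 6.67, 3.43 and 7.78 FPKM in libraries 0, 1 and 2 of Epor-eGFP+ cells, against 0.375, 0.414 and 0.217 FPKM in Epor-eGFP- libraries. Adgre1, the gene of F4/80, was at 117 to 241 FPKM in Epor-eGFP+ and 132 to 139 FPKM in Epor-eGFP- libraries, and the groups overlapped. Markers of cell types follow, called higher or lower at a limma adjusted p below 0.05. By this rule 22.7% of all tested genes were higher in Epor-eGFP+ and 26.3% lower. Of 16 macrophage markers, 12 were higher in Epor-eGFP+ (2 of the 16 averaged under 1 FPKM in Epor-eGFP-, so that Epor-eGFP+ alone carried them past the filter of a mean of 1 FPKM) and 4 (Adgre1, Csf1r, Cd68 and Fcgr1) had no call. Their summed level was 2390.4 to 8029 FPKM in Epor-eGFP+ and 655 to 902 FPKM in Epor-eGFP- libraries. Of 22 erythroid markers 15 were higher, and 8 of the 22 passed the filter through Epor-eGFP+ alone. The 5 globin genes among them had no call (sum 727, 216 and 1686 FPKM in Epor-eGFP+, 63.1, 32.2 and 771 in Epor-eGFP-), and the other 17 summed to 590.2, 418 and 404 FPKM in Epor-eGFP+ and 62.5, 54.2 and 46.5 FPKM in Epor-eGFP-. All 5 promyelocyte markers were higher (7868 to 9784 in Epor-eGFP+, 1513 to 2818 in Epor-eGFP-). Of 13 neutrophil markers 12 were lower (13319 to 17304 FPKM in Epor-eGFP+, 25079 to 39434 in Epor-eGFP-), as were 9 of 10 monocyte markers (1263 to 1573 in Epor-eGFP+, 3055 to 4302 in Epor-eGFP-). Both groups therefore held abundant transcripts of granulocytes beside those of macrophages. In bulk RNA, fewer cells of a type and less RNA per cell cannot be told apart.

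Of the 10 heme and iron genes, 7 rose in Epor-eGFP+ cells, 2 fell and 1 had no call at a limma adjusted p below 0.05. Among all 10964 genes tested, 22.7% were higher and 26.3% lower by the same rule (49.0% called). The median log2 fold change of the 10 genes was 1.35, against −0.01 over all tested genes. In 9 of the 10 the groups did not overlap (7 higher, 2 lower), as in 60.4% of tested genes (28.4% higher, 31.9% lower). With each library scaled to the same total, 3053 tested genes were higher and 2082 lower, where 2489 were higher and 2883 lower in the values as deposited, and 8 of the 10 were higher and 1 lower. The genes of heme release, breakdown, storage and export were thus called higher, and Slc11a1 was higher without passing the test. Both transcription factor genes moved in the other direction. In the plot of levels by library the Epor-eGFP+ points of the first 7 genes lie above every Epor-eGFP- point.

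**Figure D1:**
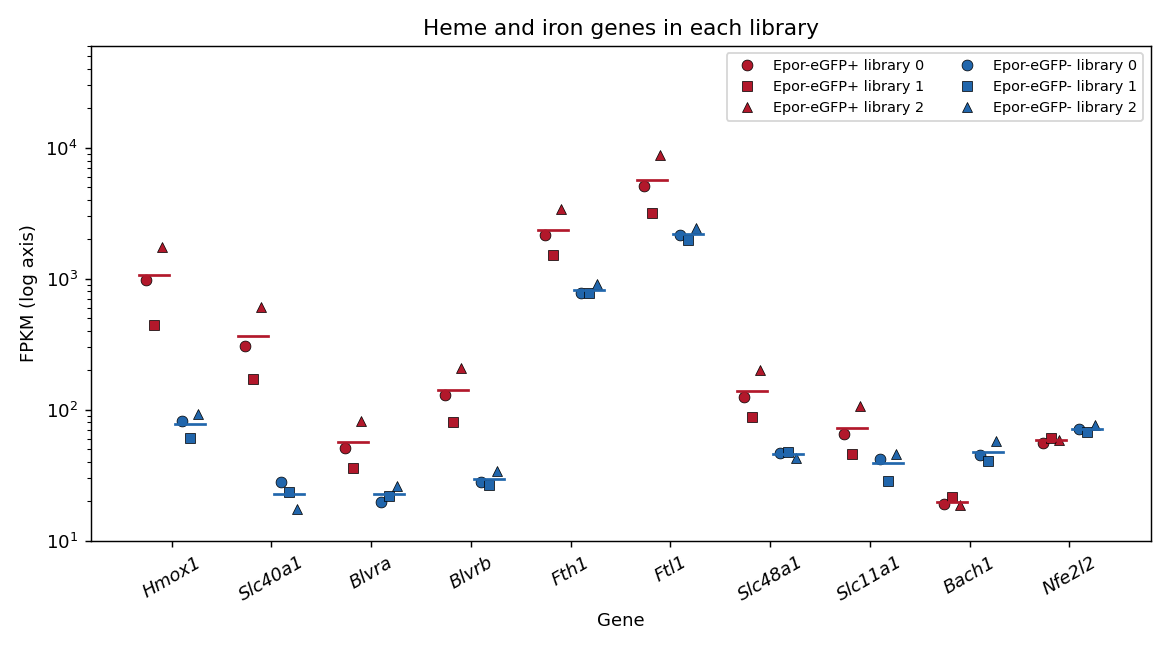
FPKM (log axis) of each of the 10 genes in each library, Epor-eGFP+ in red and Epor-eGFP- in blue, with the marker shape giving the column number and the bar the group mean. Epor-eGFP+ library 2 is the highest point and library 1 the lowest Epor-eGFP+ point for the first 8 genes, and Bach1 and Nfe2l2 lie lower in every Epor-eGFP+ library.

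Hmox1, the rate-limiting enzyme of heme breakdown, was at 983, 440 and 1754 FPKM in libraries 0, 1 and 2 of Epor-eGFP+ cells, against 81.6, 60.6 and 92.6 FPKM in libraries 0, 1 and 2 of Epor-eGFP- cells. The lowest Epor-eGFP+ library lay well above the highest Epor-eGFP- library. The means were 1059 ± 661 FPKM in Epor-eGFP+ and 78.3 ± 16.3 FPKM in Epor-eGFP- (SD, n = 3 each; log2 fold change 3.55, SE 0.46, limma adjusted p = 0.00148), a ratio of 13.5. Each fold change is a difference of mean log2(FPKM + 1), Epor-eGFP+ minus Epor-eGFP-, which understates changes of genes at low levels. By mean level Hmox1 ranked 69 of 11489 genes in Epor-eGFP+ and 969 in Epor-eGFP-. Hmox1 lies on mouse chromosome 8 from 75093621 to 75100589, plus strand (GRCm38, the build also called mm10), and the FPKM are for whole genes.

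Hmox2, the constitutive heme oxygenase, had no call. It was at 50.5, 46.9 and 64.8 FPKM in Epor-eGFP+ libraries, against 48.8, 48.2 and 50.8 FPKM in Epor-eGFP- libraries (log2 fold change 0.12, SE 0.12, adjusted p = 0.445). The ratio of Hmox1 to Hmox2 within a library was 19.5, 9.36 and 27.1 in Epor-eGFP+ and 1.67, 1.26 and 1.82 in Epor-eGFP-. Transcripts of the inducible enzyme therefore outnumbered those of the constitutive enzyme per length in all 6 libraries, by more in Epor-eGFP+. The exact two-sided permutation test of this ratio gave p = 0.1, the smallest that 3 against 3 libraries allow, and 0.14 when adjusted over the 7 ratios computed.

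Slc48a1, the heme transporter of the phagolysosome, was at 125, 87.2 and 200.5 FPKM in Epor-eGFP+ libraries, against 46.4, 47.1 and 42.8 FPKM in Epor-eGFP- libraries. It rose by 1.496 on the log2 scale (SE 0.27, adjusted p = 0.00468), with a tight Epor-eGFP- group (SD 2.30 FPKM) and a wide Epor-eGFP+ group (SD 57.6 FPKM). It lies on chromosome 15 from 97778520 to 97792692, plus strand.

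The biliverdin reductases rose unequally. Blvrb, which reduces biliverdin IXβ and flavins and is abundant in red cells, was at 130.2, 80.5 and 209.9 FPKM in Epor-eGFP+ libraries, against 27.9, 26.7 and 34.0 FPKM in Epor-eGFP- libraries (log2 fold change 2.11, SE 0.32, adjusted p = 0.00237). Blvra, which reduces the biliverdin IXα that heme oxygenase makes, was at 51.3, 36.1 and 81.6 FPKM in Epor-eGFP+ libraries, against 19.7, 22.0 and 26.0 FPKM in Epor-eGFP- libraries (1.21, SE 0.27, adjusted p = 0.0106). Blvrb was the more abundant of the pair everywhere, and its ratio to Blvra was 2.45 ± 0.191 in Epor-eGFP+ and 1.31 ± 0.0975 in Epor-eGFP- (SD, n = 3 each; exact permutation p = 0.1, adjusted over the 7 ratios 0.14). The ratios of the groups did not overlap. Because Blvrb is an abundant red cell gene, the erythroid values above stand beside it. The sum of the 17 markers other than globins was higher in every Epor-eGFP+ library, and 15 of the 17 were called higher. Gata1 and Alas2 had no call, and their groups overlapped. The part of these markers in the difference was not tested. Blvra lies on chromosome 2 from 127070665 to 127097084 and Blvrb on chromosome 7 from 27447978 to 27466144, both on the plus strand.

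Ferritin transcripts were among the most abundant of the table. Ftl1 was at 5133, 3162 and 8857 FPKM in Epor-eGFP+ libraries, against 2175, 1966 and 2443 FPKM in Epor-eGFP- libraries. By mean level it ranked 2 of 11489 genes in Epor-eGFP+ and 14 in Epor-eGFP-. Fth1 was at 2153, 1520.3 and 3381 FPKM in Epor-eGFP+ libraries, against 781, 775 and 909.7 FPKM in Epor-eGFP- libraries. It ranked 13 in Epor-eGFP+ and 96 in Epor-eGFP-. Both rose, Fth1 by 1.44 on the log2 scale (SE 0.27, adjusted p = 0.00542) and Ftl1 by 1.26 (SE 0.35, adjusted p = 0.0222). Together they held 1.55%, 1.002% and 2.44% of all FPKM in libraries 0, 1 and 2 of Epor-eGFP+ cells, against 0.569%, 0.543% and 0.649% in Epor-eGFP- libraries. The call on Ftl1 was lost without Epor-eGFP+ library 0 (adjusted p = 0.0618), without Epor-eGFP- library 0 (0.0662) and without Epor-eGFP- library 1 (0.0629), with a log2 fold change of at least 1.18 in each of these.

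For the heavy to light chain ratio no difference between the groups passed a test. Fth1/Ftl1 was 0.419, 0.481 and 0.382 in Epor-eGFP+ libraries, against 0.359, 0.394 and 0.372 in Epor-eGFP- libraries, and the groups overlapped (difference of log2 ratios 0.18, exact permutation p = 0.2). Within each of the 3 column numbers the ratio was the higher in Epor-eGFP+. No paired test of this ratio was run, and the labels state no pairing. Light chain transcripts exceeded heavy chain transcripts per length in all 6 libraries. Fth1 lies on chromosome 19 from 9980598 to 9985098, plus strand, and Ftl1 on chromosome 7 from 45457944 to 45459884, minus strand. The annotation names 9 further Fth1-like and 3 further Ftl1-like genes or pseudogenes, which were not analysed here, and how reads shared with such copies were counted is not stated, so the single ferritin values are uncertain.

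Slc40a1, the only known cellular iron exporter of mammals, was at 307, 171 and 613 FPKM in Epor-eGFP+ libraries, against 27.8, 23.3 and 17.4 FPKM in Epor-eGFP- libraries. Every Epor-eGFP+ library lay far above every Epor-eGFP- library. Its means were 364 ± 226 FPKM in Epor-eGFP+ and 22.9 ± 5.23 FPKM in Epor-eGFP- (SD, n = 3 each; log2 fold change 3.77, SE 0.43, adjusted p = 0.000992), a ratio of 15.9 and the largest change of the 10 genes. Without Epor-eGFP+ library 2 the Epor-eGFP+ mean was 239 FPKM and the log2 fold change 3.30. Without Epor-eGFP- library 2 the change was larger for Hmox1 (3.68) than for Slc40a1 (3.59), as without both libraries numbered 2 (3.21 and 3.12). By mean level Slc40a1 ranked 187 of 11489 genes in Epor-eGFP+ and 3590 in Epor-eGFP-. Slc40a1 lies on chromosome 1 from 45908068 to 45926523, minus strand.

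For Slc40a1 against Hmox1 no difference in proportion passed a test. The ratio Slc40a1/Hmox1 was 0.312, 0.390 and 0.3497 in Epor-eGFP+ libraries, against 0.341, 0.385 and 0.188 in Epor-eGFP- libraries, with overlapping groups (exact permutation p = 0.6, difference of log2 ratios 0.26, and −0.054 without Epor-eGFP- library 2). Relative to Adgre1, the gene of the sorting marker, both were higher in every Epor-eGFP+ library: Hmox1/Adgre1 was 5.97 ± 1.92 in Epor-eGFP+ and 0.574 ± 0.104 in Epor-eGFP-, and Slc40a1/Adgre1 was 2.05 ± 0.545 in Epor-eGFP+ and 0.169 ± 0.0401 in Epor-eGFP- (SD, n = 3 each; exact permutation p = 0.1 for both, adjusted 0.14). Adgre1 had no call where most macrophage markers were higher, so these ratios are not levels per macrophage.

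Transcripts of both ferritin chains and of ferroportin carry an iron-responsive element, a hairpin in the 5′ untranslated region that iron regulatory proteins bind when iron is scarce, which blocks translation. These stretches are printed because they set a limit on what RNA levels say about these 3 proteins. A search of protein-coding GENCODE M21 transcripts found them by a fixed pattern in the first 300 bases, a C, 5 bases, the loop CAGTGN and 5 bases that pair with the first 5. The pattern was present in 12 of 21877 protein-coding genes (0.0549%), of which 3 are genes described here. Each stretch of 28 bases is given 5′ to 3′ in DNA letters, with the loop of 6 bases in capitals.
Fth1, chr19:9982733-9982760, plus strand: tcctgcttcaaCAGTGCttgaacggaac
Ftl1, chr7:45459779-45459806, minus strand: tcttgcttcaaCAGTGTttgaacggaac
Slc40a1, chr1:45925465-45925492, minus strand: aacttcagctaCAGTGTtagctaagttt
The Fth1 and Ftl1 stretches share 26 of 28 bases and differ by C3T and C17T, counted from the 5′ end of the printed stretch with the Fth1 base first. All 3 of the genes described here in which the pattern was found rose, and translation was not measured.

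**Figure D2:**
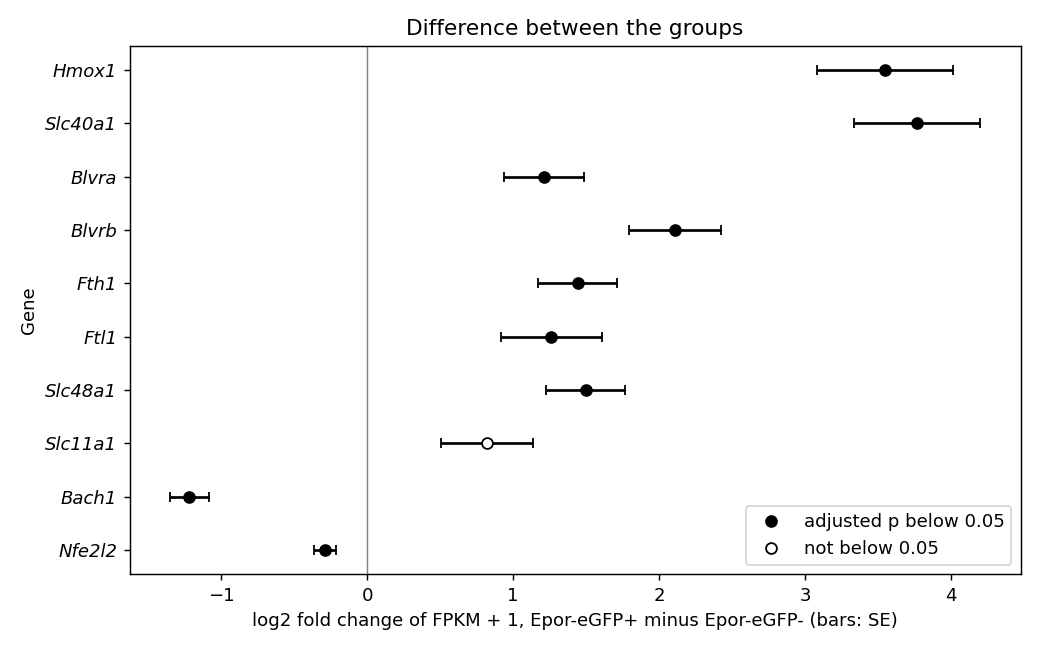
Log2 fold change of FPKM + 1, Epor-eGFP+ minus Epor-eGFP-, with its SE from limma, for the 10 genes. Filled points passed an adjusted p of 0.05. Slc40a1 (3.77) and Hmox1 (3.55) lie farthest to the right, Slc11a1 (0.82) is the open point, and Bach1 (−1.22) and Nfe2l2 (−0.29) lie left of 0.

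Slc11a1, the phagosomal metal transporter NRAMP1, was at 64.8, 45.5 and 107 FPKM in Epor-eGFP+ libraries, against 42.3, 28.8 and 45.6 FPKM in Epor-eGFP- libraries. The groups overlapped, since Epor-eGFP+ library 1 lay just under Epor-eGFP- library 2. The log2 fold change was 0.82 (SE 0.31, adjusted p = 0.0671; exact permutation p = 0.2). Within each column number Epor-eGFP+ was the higher, and when column numbers entered the model as a replicate block it passed (adjusted p = 0.00720). It also passed when scaled to a common total (0.0320) or upper quartile (0.0445), under quantile normalization (0.0422) and without Epor-eGFP+ library 1 (0.0200). In the other 11 of 16 alternatives it did not pass, with the largest adjusted p (0.176) without Epor-eGFP- library 1. It lies on chromosome 1 from 74375195 to 74386062, plus strand.

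The regulators moved the other way. Bach1, the heme-sensing repressor of Hmox1, was at 19.0, 21.6 and 18.8 FPKM in Epor-eGFP+ libraries, against 45.2, 40.6 and 57.3 FPKM in Epor-eGFP- libraries. It fell to 19.8 ± 1.56 FPKM in Epor-eGFP+, against 47.7 ± 8.59 FPKM in Epor-eGFP- (SD, n = 3 each; log2 fold change −1.22, SE 0.13, adjusted p = 0.000861). Bach1 has the smallest adjusted p of the 10 genes and, unlike the genes that rose, a narrow Epor-eGFP+ group. Its chromosome is 16, from 87698945 to 87733346 on the plus strand.

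Nfe2l2 was at 55.7, 60.9 and 58.3 FPKM in Epor-eGFP+ libraries, against 70.9, 67.6 and 75.8 FPKM in Epor-eGFP- libraries. The groups did not overlap, and the difference was small (log2 fold change −0.29, SE 0.07, adjusted p = 0.0170). Its call was lost when libraries were scaled to a common total (−0.19, adjusted p = 0.0948), without Epor-eGFP+ library 0 (0.0768), without Epor-eGFP- library 0 (0.0553) and without both libraries numbered 2 (0.0578). The ratio of Nfe2l2 to Bach1 was 2.93, 2.82 and 3.11 in Epor-eGFP+ libraries, against 1.57, 1.66 and 1.32 in Epor-eGFP- libraries (exact permutation p = 0.1, adjusted over the 7 ratios 0.14). The activator transcript thus stood higher against the repressor transcript in every Epor-eGFP+ library, although Nfe2l2 itself was lower there. Nfe2l2 lies on chromosome 2 from 75675513 to 75704641, minus strand.

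BACH1 and NRF2 bind, as dimers with small MAF proteins, a DNA element with the core TGACNNNGC. Promoters from RefSeq (GRCm38.p6, 250 bases before to 50 after a start) were at hand for 7 of the 10 genes, and not for Hmox1, Slc40a1 and Slc48a1. On either strand the core was found in promoters of Blvra and Nfe2l2, 2 of 9 promoters of these genes and 12.4% of 32851 promoters. AGATAA, the core that GATA factors bind, was found on neither strand of the 9 promoters and in 11.2% of all. The stretches with the first core are printed as examples of the element, on the strand of the gene, with the match in capitals.
Blvra, chr2:127070598-127070626, plus strand, match on the opposite strand from base −49: cacgggaattGCTCGGTCAaggctccgcc
Nfe2l2, chr2:75704885-75704913, minus strand, match on the gene's strand from base −240: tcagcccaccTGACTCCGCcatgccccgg
Bases are counted from the start site. A match of letters is a description and not a binding site, and the known distal enhancers of Hmox1 lie outside such windows.

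The 8 genes other than Bach1 and Nfe2l2 ranked the Epor-eGFP+ libraries alike, with library 2 highest, library 0 between and library 1 lowest. This order was found in 23.9% of tested genes and in 29.4% of those higher in Epor-eGFP+. Library 2 exceeded library 1 by a factor of 3.99 for Hmox1, 3.58 for Slc40a1, 2.80 for Ftl1, 2.61 for Blvrb, and 2.22 to 2.36 for Fth1, Blvra, Slc48a1 and Slc11a1, against 0.870 for Bach1 and 0.957 for Nfe2l2. Epor (2.27) and Adgre1 (2.06) differed between these libraries in the same direction, as did the macrophage marker sum and the sum of the 5 globin genes. All 16 macrophage markers were higher in library 2 than in library 1. Of 22 erythroid markers 13 were lower in library 2 than in library 1, among them 12 of the 15 called higher between groups. The orders with library 2 under library 1 were 0, 1, 2 (from high to low), 1, 0, 2 and 1, 2, 0. They held 14.6%, 31.4% and 10.9% of all tested genes, and 17.8%, 31.3% and 5.62% of those higher in Epor-eGFP+. The 13 of 22 thus lay near the share over all tested genes. The sum of the 17 erythroid markers other than globins was highest in library 0. Promyelocyte and neutrophil sums were highest in library 1. The macrophage marker sum thus moved with the heme and iron genes between Epor-eGFP+ libraries as well as between groups, and its part was not tested. Without Epor-eGFP+ library 2 the log2 fold change was 3.08 for Hmox1, 3.30 for Slc40a1 and 0.88 for Ftl1, and the same 7 genes were called higher and the same 2 lower.

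**Figure D3:**
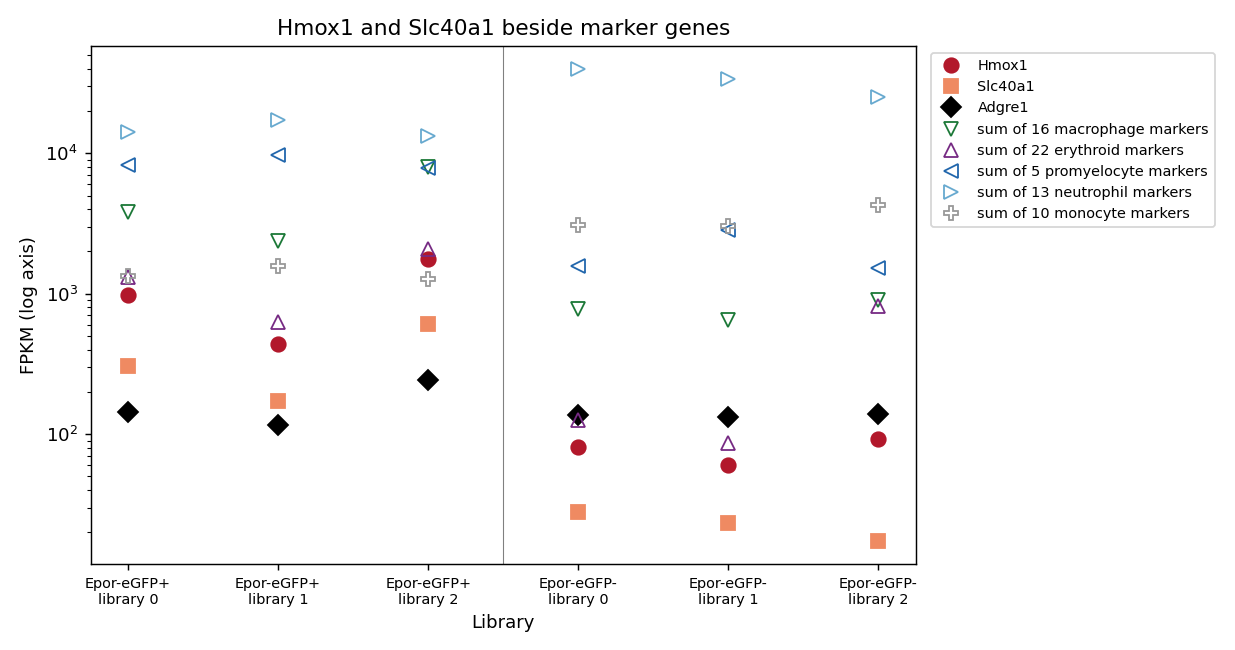
FPKM (log axis) of Hmox1, Slc40a1 and Adgre1 (filled) and summed FPKM of 5 marker lists (open) in each library. Hmox1 (440 to 1754 FPKM) and Slc40a1 (171 to 613 FPKM) are highest in Epor-eGFP+ library 2, as are Adgre1, the macrophage sum (8029 FPKM) and the erythroid sum (2089.6 FPKM, of which 1686 are globins), and the neutrophil sum is lower in every Epor-eGFP+ library.

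Genes of heme and haemoglobin uptake and heme transport showed a few very large rises. Of 10 tested, 6 rose, 1 fell and 3 had no call, where 22.7% of all tested genes were higher and 26.3% lower. The median log2 fold change was 0.61, against −0.01 over all tested genes. The median was 0.19 among genes with a mean of 5 FPKM or more, and 0.41 with a pseudocount of 5. Cd163, the receptor for haptoglobin-bound haemoglobin, was at 115, 58.2 and 267 FPKM in Epor-eGFP+ libraries, against 4.34, 2.66 and 3.19 FPKM in Epor-eGFP- libraries (log2 fold change 4.82, SE 0.50), or a mean of 86.8 without Epor-eGFP+ library 2. Spic, the transcription factor that heme induces in red pulp macrophages, rose by 4.08 (SE 0.41). Slc46a1, a folate and heme carrier, rose by 1.08 (SE 0.28) at a mean of 3.05 FPKM in Epor-eGFP+ and 0.800 in Epor-eGFP- (adjusted p = 0.0184, and 0.0511 without Epor-eGFP+ library 0 and 0.0502 without Epor-eGFP- library 2; it passed the filter through Epor-eGFP+ alone), and Abcb6, a porphyrin transporter, by 0.98 (SE 0.12). The gene that fell was Hp, haptoglobin itself, at 340 ± 43.6 FPKM in Epor-eGFP+ and 580 ± 58.2 FPKM in Epor-eGFP- (SD, n = 3 each; −0.77, SE 0.12, adjusted p = 0.00275). With the replicate block, and without both libraries numbered 2, 2 genes fell.

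Of 17 tested genes of iron uptake, storage and sensing, 9 rose, 3 fell and 5 had no call (median 0.49). The shares over all tested genes were 22.7% higher and 26.3% lower. Trf, which encodes transferrin, the iron carrier of plasma, was at 406, 262 and 934 FPKM in Epor-eGFP+ libraries, against 149, 127 and 147 FPKM in Epor-eGFP- libraries (1.71, SE 0.42, adjusted p = 0.0142), or a mean of 334 without Epor-eGFP+ library 2. Tfrc, the transferrin receptor, rose by 1.68 (SE 0.18), Slc39a8, a zinc and iron importer, by 1.55 (SE 0.18), and Slc11a2, which carries iron out of endosomes, by 1.11 (SE 0.08). Tfrc did not follow the order of the storage and export genes: at 37.9, 39.3 and 29.9 FPKM in libraries 0, 1 and 2 of Epor-eGFP+ cells it was lowest in library 2, and in Epor-eGFP- it was at 11.6, 12.3 and 7.69 FPKM. Tfrc is also highly expressed by erythroblasts. The genes that fell were Slc25a28, a mitochondrial iron importer (−0.51, SE 0.09), Fbxl5, the ubiquitin ligase subunit that degrades iron regulatory proteins (−0.68, SE 0.16), and Ireb2, the gene of iron regulatory protein IRP2 (−0.31, SE 0.09).

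The partners and inhibitors of NRF2 showed no common direction, with 2 of 10 higher, 3 lower and 5 without a call (median −0.03, which was positive when libraries were scaled to a common total or upper quartile). These counts lie near the shares over all tested genes, 22.7% higher and 26.3% lower. Among small MAF genes, Mafg fell by 0.68 (SE 0.07) and Mafk by 0.43 (SE 0.09) on the log2 scale, while Maff rose by 0.61 (SE 0.12) at a mean of 1.44 FPKM in Epor-eGFP+ and 0.594 in Epor-eGFP-, and passed the filter through Epor-eGFP+ alone. Nfe2l1, a relative of Nfe2l2, rose by 0.65 (SE 0.18, adjusted p = 0.0213, and 0.0529 to 0.0624 without Epor-eGFP+ library 0 or any 1 Epor-eGFP- library), and the third gene that fell was Cul3, the ligase scaffold that KEAP1 uses on NRF2 (−0.35, SE 0.08). Keap1 itself was at 24.9 ± 1.05 FPKM in Epor-eGFP+ and 25.8 ± 2.51 FPKM in Epor-eGFP- (SD, n = 3 each; adjusted p = 0.679).

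Of 17 tested enzymes that NRF2 is known to induce, 8 rose, 4 fell and 5 had no call (median 0.25). Over all tested genes, 22.7% were higher and 26.3% lower. Ephx1, an epoxide hydrolase, rose by 2.65 (SE 0.46), with 32.3 ± 18.2 FPKM in Epor-eGFP+ and 4.01 ± 1.82 FPKM in Epor-eGFP- (SD, n = 3 each). Gstm1, a glutathione transferase, rose by 1.14 (SE 0.10), Gclm, a subunit of the enzyme that starts glutathione synthesis, by 1.08 (SE 0.14), and Cbr1, a carbonyl reductase, by 1.007 (SE 0.17). The genes that fell were G6pdx (−0.77, SE 0.07), Pgd (−0.44, SE 0.08) and Taldo1 (−0.71, SE 0.08) of the pentose phosphate pathway, and Gsr, glutathione reductase (−0.62, SE 0.10). Nqo1, a classical NRF2 target, was at 2.17 ± 0.723 FPKM in Epor-eGFP+ and 2.13 ± 0.336 FPKM in Epor-eGFP- (SD, n = 3 each; adjusted p = 0.995). Without Epor-eGFP+ library 0, 5 of these enzymes were higher.

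**Figure D4:**
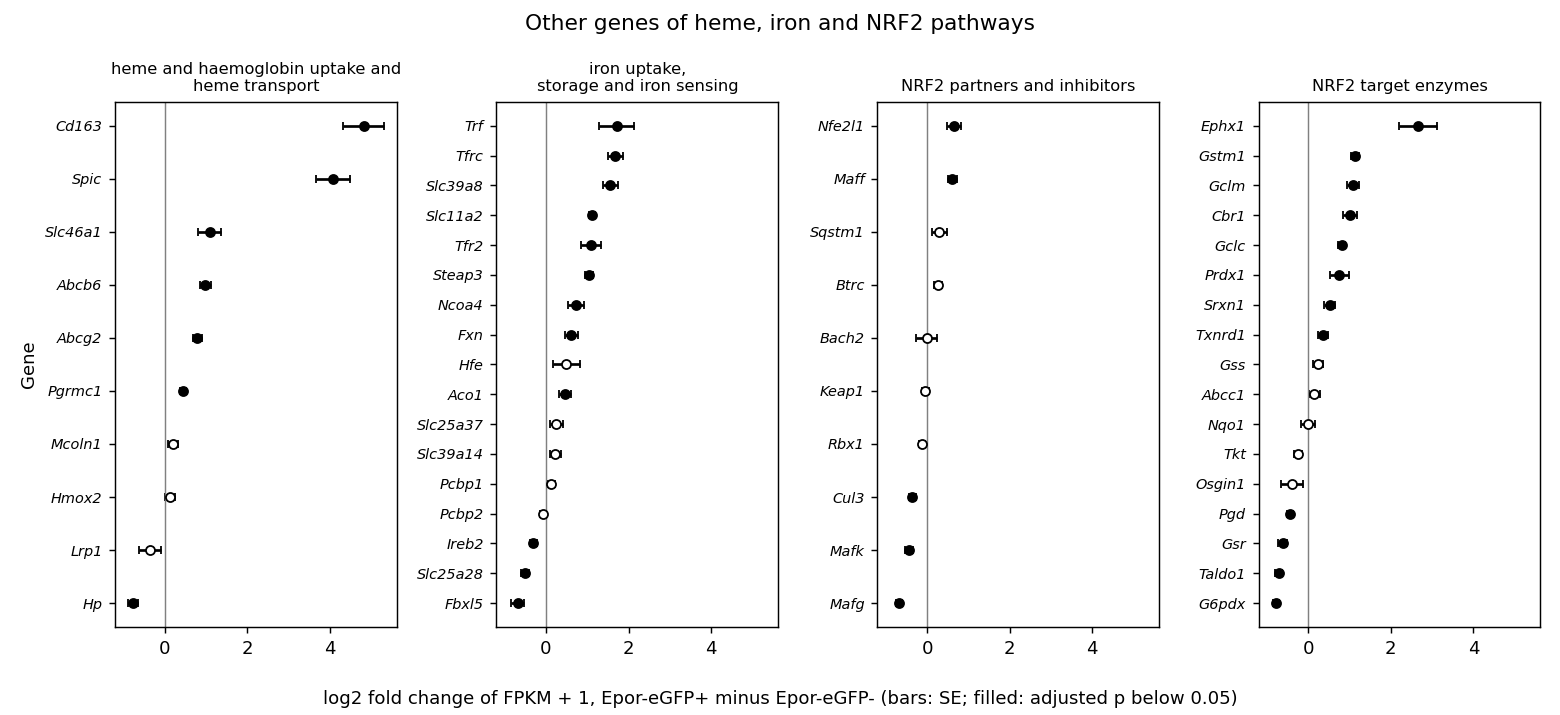
Log2 fold change of FPKM + 1, Epor-eGFP+ minus Epor-eGFP-, with its SE from limma, for the tested genes of 4 further lists. Filled points passed an adjusted p of 0.05. Cd163 (4.82) and Spic (4.08) lie farthest to the right, and the lists of NRF2 partners and targets hold filled points on both sides of 0.

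The genes most like Hmox1 over the 6 libraries, by the root mean square difference between mean-centred log2(FPKM + 1) profiles among 6261 other genes whose mean reached 10 FPKM, were Abcc3 (0.13), Crip2 (0.18), Dmpk (0.22), Hebp1 (0.23) and Pld3 (0.23). Abcc3 encodes an efflux pump for organic anions such as conjugated bilirubin, and it was at 27.2, 13.7 and 61.1 FPKM in Epor-eGFP+ libraries, against 2.14, 0.942 and 1.89 FPKM in Epor-eGFP- libraries. Hebp1 encodes a heme-binding protein and was at 45.8, 27.2 and 77.9 FPKM in Epor-eGFP+ libraries, against 3.41, 3.07 and 3.25 FPKM in Epor-eGFP- libraries. For Slc40a1 the list was Vcam1 (0.11), Hpgds (0.14), Cd4 (0.15), Cmbl (0.15) and Dmpk (0.19), with Vcam1, an adhesion molecule of island macrophages, at 417, 263 and 999 FPKM in Epor-eGFP+ libraries, against 40.4, 30.5 and 24.5 FPKM in Epor-eGFP- libraries. Except for Pld3 and Vcam1, the genes of both lists averaged 0.513 to 3.25 FPKM in Epor-eGFP-, so Epor-eGFP+ alone carried them past 10 FPKM. Dmpk had a ratio of means of 38.9 and a log2 fold change of 3.65, against 13.5 and 3.55 for Hmox1. At such low levels the 1 FPKM added before the log thus shapes this measure. The difference between Hmox1 and Slc40a1 on this measure was 0.34. Among the other genes described here it was 0.75 to 1.21 from Hmox1 for those called higher, 1.38 for Slc11a1, 2.47 for Bach1 and 2.01 for Nfe2l2.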

How the data were processed

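The authors deposited a single table of FPKM values per gene for 6 libraries. The submitters' processing notes name Cufflinks 2.2.1, TopHat2 2.1.0, Trimmomatic 0.35, bcl2fastq 2.19.1.403 and build mm10, without role or order; for annotation, filters and scaling, nothing is given in the sources used here. Columns were assigned to groups by name; their numbers (0 to 2) differ from those of the labels (1 to 3). FPKM hold no counts, so depth is unknown.

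Those of the 11489 genes whose mean reached 1 FPKM (10964) were fitted with limma 3.58.1 (R 4.3.3) on log2(FPKM + 1), group as the only term, eBayes with a trend, two-sided. Benjamini-Hochberg adjustment ran over all of them (threshold 0.05). Deviations of same-numbered libraries from their group means correlated at 0.25, 0.38 and 0.35 across genes, and those of differently numbered libraries at −0.39 to 0.07. The labels state no pairing. Comparisons within column numbers, and a replicate block by column number as an alternative, rest on these correlations alone. The main fit and the exact permutation tests did not use pairs. There were 16 alternatives, including scaling, pseudocounts, filters and leaving out libraries. The fit was tested on simulated data.

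The genes, lists and tests were chosen with earlier results of these data known. Named were the 10 genes, up to 4 called genes of each pathway list by absolute fold change, Epor, Adgre1, Hmox2, and the 5 genes most like Hmox1 and Slc40a1. Markers are given as sums, with single markers, chosen after their values were seen, named beside some of them. The other genes of the lists named (those that fell, Keap1, Nqo1) were chosen after their values were seen. Sequences are from GENCODE M21 transcripts and RefSeq.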

Additional observations from a re-analysis of the deposited data

How the results depend on the processing

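Depth is unknown, and 3 libraries a group limit the precision. Hmox1, Slc40a1, Blvra, Blvrb, Fth1, Slc48a1 and Bach1 kept their direction and call in all 16 alternatives, with log2 fold changes of 3.08 to 4.07 for Hmox1, 3.12 to 4.21 for Slc40a1 and −1.32 to −1.05 for Bach1. Leaving out 1 library at a time, Ftl1 ran from 0.88 to 1.62, Slc11a1 from 0.50 to 1.11 and Nfe2l2 from −0.33 to −0.24, the number of the 10 genes that were lower from 1 to 2, the tested genes higher from 1634 (without Epor-eGFP+ library 0) to 2479, the NRF2 partners higher from 1 (without Epor-eGFP+ library 0 or any 1 Epor-eGFP- library) to 3, the NRF2 targets higher from 5 to 8, the median of the NRF2 partners from −0.098 to 0.084, and the difference of log2 Slc40a1/Hmox1 from −0.054 (without Epor-eGFP- library 2) to 0.46. Slc11a1 passed when scaled to a common total (0.92) or upper quartile (0.88), under quantile normalization (0.89) and with the replicate block (0.82, adjusted p = 0.00720). It also passed without Epor-eGFP+ library 1 (1.11) and had no call in the other 11 alternatives. Scaled to the total, Nfe2l2 lost its call (−0.19), 1 of the 10 genes was lower and the NRF2 partner median was 0.060 (0.026 by upper quartile). Without both libraries numbered 2, Nfe2l2 lost its call (−0.25), so that 1 gene was lower, the NRF2 partner median was 0.061, 2 heme uptake genes were lower and the Slc40a1/Hmox1 difference was −0.056. With a mean of at least 5 FPKM, fewer genes were tested, 3 heme uptake genes (median 0.19) and 1 NRF2 partner were higher. With the replicate block 2 heme uptake genes were lower, and among the 10 genes no other call changed. The cause of these changes was not tested.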

Other observations

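Other iron genes of the lists, are given here, chosen after their values were seen. Ncoa4, the receptor that delivers ferritin to lysosomes, was at 132 ± 34.1 FPKM in Epor-eGFP+ and 77.7 ± 11.8 FPKM in Epor-eGFP- (SD, n = 3 each; log2 fold change 0.74, SE 0.20, limma adjusted p = 0.0202). Aco1, the gene of iron regulatory protein IRP1, was at 18.5 ± 3.84 FPKM in Epor-eGFP+ and 12.9 ± 0.924 FPKM in Epor-eGFP- (0.47, SE 0.14, adjusted p = 0.0307), while Ireb2, the gene of IRP2, was at 13.5 ± 1.32 FPKM in Epor-eGFP+ and 16.9 ± 0.518 FPKM in Epor-eGFP- (−0.31, SE 0.09, adjusted p = 0.0216). The genes of both proteins that bind the ferritin and ferroportin elements thus differed in opposite directions. Pcbp1, an iron chaperone that loads ferritin, was at 242 ± 18.3 FPKM in Epor-eGFP+ and 224 ± 21.3 FPKM in Epor-eGFP- and had no call (adjusted p = 0.370). Its relative Pcbp2 was at 131 ± 3.45 FPKM in Epor-eGFP+ and 138 ± 5.66 FPKM in Epor-eGFP- (adjusted p = 0.409).

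The remaining marker lists are given by their summed FPKM, since members of several passed the filter of a mean of 1 FPKM through the group where they are high (2 of 3 osteoclast, 3 of 4 stroma and endothelium and 2 of 3 T and NK cell markers tested). Osteoclast markers summed to 124 to 214 FPKM in Epor-eGFP+ and 13.3 to 23.8 in Epor-eGFP- libraries, with Dcstamp listed at 0 in some libraries. T and NK cell markers summed to 200.4 to 255 FPKM in Epor-eGFP+ and 50.0 to 91.7 in Epor-eGFP-. Nkg7 made up most of these sums (means of 227 FPKM in Epor-eGFP+ and 66.3 in Epor-eGFP-) and was called higher. The other 2 tested, Ncr1 (0.474 and 2.05) and Klrb1c (0.428 and 1.93), were called lower. Stroma and endothelium markers summed to 26.7 to 31.4 in Epor-eGFP+ and 24.6 to 30.9 in Epor-eGFP-. Pecam1 made up most of these sums (20.5 and 26.9) and had no call. The other 3, Cxcl12 (3.98 and 0.779), Col1a1 (1.94 and 0.150) and Kitl (3.07 and 0.110), were called higher. Of 9 eosinophil markers 1 was higher and 5 lower (8059 to 15969 FPKM in Epor-eGFP+, 14953 to 24512 in Epor-eGFP-). Prg2 was listed at 0 in Epor-eGFP+ library 0, against 10348 and 11088 FPKM in libraries 1 and 2. The lowest sum, 8059 FPKM in library 0, rests on that entry. Apart from Ccr3, the other eosinophil markers were highest in library 0 among the Epor-eGFP+ libraries. Of 6 B and plasma cell markers 1 was higher (212 to 281 FPKM in Epor-eGFP+, 121 to 372 in Epor-eGFP-), as was 1 of 6 megakaryocyte markers (83.02 to 177 in Epor-eGFP+, 33.7 to 97.5 in Epor-eGFP-). Over all tested genes 22.7% were higher and 26.3% lower, so 1 of 6 (16.7%) does not exceed the share that were higher.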
